A study of Mus musculus with 24 samples.

Results

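The cytosolic ribosomal protein genes were taken as the rows of the deposited mouse lung gene table whose symbol is Rps or Rpl followed by a number, with the suffixes of the standard paralogues allowed, or is Rplp0, Rplp1, Rplp2 or Rpsa, and whose counts summed to at least 240 over the 24 libraries. This gave 83 of the 26253 genes in the table, 32 of the small subunit and 51 of the large. Of the 85 symbols that matched, Rpl10l (no count) and Rpl39l (86 counts) fell under the minimum. The libraries were made from total lung RNA of mice on a control diet or on one enriched in the omega-3 fatty acid docosahexaenoic acid (DHA), exposed to filtered air or to ozone. There were 4 groups of 6 libraries: control-diet air, control-diet ozone, DHA-diet air and DHA-diet ozone. Strain, sex, age, ozone dose and time of sampling were not given in the sources used here, nor whether the libraries came from separate animals, so a p-value speaks only of the spread among these 24 libraries, which may be technical in part.

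Ribosomal proteins clothe the ribosomal RNA of the small subunit, which reads the messenger RNA, and of the large subunit, which joins amino acids. Their messenger RNAs carry a run of pyrimidines at the 5′ end, through which mTOR complex 1 sets their translation, and they are made together in growing cells. In the lung they are among the abundant housekeeping transcripts of every cell type, and in whole tissue a change in cell make-up cannot be told apart from a change in RNA per cell.

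Many ribosomal protein genes have intronless copies elsewhere in the genome, and reads that fall in shared sequence can be assigned to either place or to none. Of the 83 genes, 81 had a coding transcript in the GENCODE M21 annotation. Rps4l, a transcribed pseudogene in RefSeq, and Rpl32l had none, so their shared sequence was not measured. Between 0% (as in Rps3 and Rpl3l) and 98.5% (Rps27) of a transcript's 75-base words were also found in transcripts of other genes. Rps6, the small subunit protein that S6 kinase phosphorylates, is an example of such shared sequence. Its 750 coding bases are identical in the pseudogene Rps6-ps4, and the first 60, from GENCODE M21, are printed for both. No base is in capitals because none differs.
Rps6: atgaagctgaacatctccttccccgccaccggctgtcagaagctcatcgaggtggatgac
Rps6-ps4: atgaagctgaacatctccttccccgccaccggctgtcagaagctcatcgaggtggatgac
Over the 24 libraries Rps6 (chromosome 4 at 86772336 to 86775605) held 13779 counts and Rps6-ps4 (chromosome 2 at 75021339 to 75022199) 230584, which is 16.7 times as many. Coordinates of genes are those of the deposited table on mm39, whose counting convention was not given, so an end can be off by 1 base. Rps23, a small subunit protein of the decoding centre, held 3699 counts, and Gm5148, a protein-coding gene with transcripts that hold the Rps23 sequence on their opposite strand, held 249100 (67.3 times as many). The first 397 of the 432 coding bases of Rps23 are found there without a difference. Bases 368 to 427 are printed to show where the match ends, with the bases that differ in capitals.
Rps23: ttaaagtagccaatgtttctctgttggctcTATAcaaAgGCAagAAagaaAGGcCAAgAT
Gm5148: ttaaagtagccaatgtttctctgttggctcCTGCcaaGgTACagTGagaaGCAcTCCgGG
Of the 75-base words of Rps23, 40.9% were shared with Gm5148. Whether the counting used strand was not given, so reads within that shared sequence cannot be told apart here. The part of shared sequence in the counts of Rps6, Rps23 and their matching rows was not tested. Rows of pseudogenes and of genes with a Gm number were kept if they held at least 240 counts and at least 25% of a ribosomal protein gene's 75-base words. This gave 11 rows, each set beside the 1 gene with which it shared most, 10 of them on the same strand. Without these limits more genes share words, 64 with Rpl7a and 50 with Rps2. Rpl12 and Rpl28 carry a further doubt, because the deposited table places them on chromosomes 10 and 1 while RefSeq places them on chromosomes 2 and 7.

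Measured per kb of transcript, the levels ran over a wide range. The level is given as CPM, counts scaled to a common library size by TMM (trimmed mean of M values), divided by transcript length. Rps14, Rplp1 and Rps15 stood highest at 1645, 1554 and 1257 CPM per kb, and Rpl3l, a paralogue of Rpl3 known from striated muscle, and Rps27 lowest at 1.1 and 1.61. Across the 81 genes the level fell with the share of sequence found elsewhere (Spearman's rho -0.477 across genes, a description, since genes are not replicates). The 15 genes with under 25% shared words had a median of 532 CPM per kb, the 47 genes between 25% and 75% a median of 206, and the 19 genes at 75% and above a median of 30.2. Rps6 and Rpl5 were counted at 29.2 and 5.23 CPM per kb beside 516 for Rps3. Levels are compared between libraries in what follows.

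**Figure D1:**
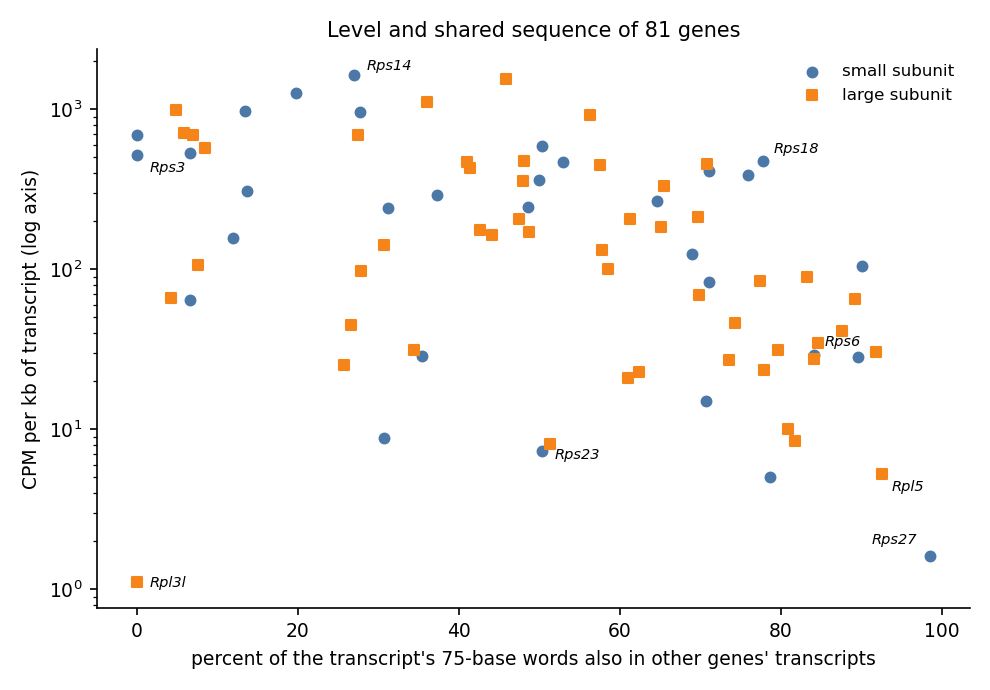
Each point is 1 of the 81 ribosomal protein genes with a GENCODE transcript. The x axis gives the percent of the transcript's 75-base words that also occur in transcripts of other genes, and the y axis, a log axis, the mean CPM per kb of transcript over 24 libraries. Rps27, with 98.5% shared words, lies at the low end, and Rpl3l lies low with 0%.

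For 62 of the 83 genes the RefSeq table on GRCm38.p6 held the promoter. The 40 bases around the annotated start, 20 on each side, are printed for some of the genes called in an ozone comparison and for Rps6. Runs of 5 or more C or T are in capitals.
Rps2, chr17:24720043-24720082, plus strand: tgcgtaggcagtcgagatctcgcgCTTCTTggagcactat
Rpsa, chr9:120127746-120127785, plus strand: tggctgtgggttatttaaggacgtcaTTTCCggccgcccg
Rplp0, chr5:115559447-115559486, plus strand: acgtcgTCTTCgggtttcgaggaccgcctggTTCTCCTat
Rpl35, chr2:39005112-39005151, minus strand: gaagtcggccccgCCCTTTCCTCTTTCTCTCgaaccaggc
Rps6, chr4:86857348-86857387, minus strand: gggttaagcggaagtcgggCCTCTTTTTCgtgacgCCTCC
Rpl5, chr5:107900508-107900547, plus strand: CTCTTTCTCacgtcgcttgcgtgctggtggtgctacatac
A run of 8 or more C or T on the gene's own strand lay in this window in 31 of the 62 genes, against 18.4% of all 27025 genes in the table. The core CTTCCG, or its reverse complement CGGAAG, was found on either strand from 250 before to 50 after the start in 41 of 62 (66.1%), against 18.8% of all genes. Among the windows printed, the longest run was 18 bases in Rpl35, and it was 6 bases in Rps2. In the called genes not printed it was 3 bases in Rpl7l1 and 5 in Rpl36al. It was 9 in Rps27l and 7 in Rpl10a, each with a second annotated start where it was 4. The annotated start can lie some bases off the true one.

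Library totals ran from 18053493 to 26225630 counts. Together the 83 genes took 1.55% to 2.09% of a library's counts, and the lowest 3 values were those of control-diet air libraries 1, 2 and 3 (1.63%, 1.56% and 1.55%). As a mean over the genes these libraries stood at 6.18, 6.16 and 6.11 log2 CPM, and control-diet air libraries 4, 5 and 6 at 6.50, 6.52 and 6.55. The other 3 groups lay between 6.26 and 6.53, with group means of 6.36 ± 0.09 (control-diet ozone), 6.40 ± 0.07 (DHA-diet air) and 6.41 ± 0.05 (DHA-diet ozone; SD, n = 6 each). The control-diet air mean was 6.33 ± 0.21, the widest SD of the 4 groups. Both subunits moved alike in the group, from 6.33 to 6.80 for the small subunit and from 5.97 to 6.39 for the large. Taking Scgb1a1, the club cell secretory protein and the most abundant transcript, out of the total left control-diet air libraries 1 to 3 the lowest 3 of 24, at 1.71% to 1.80%.

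**Figure D2:**
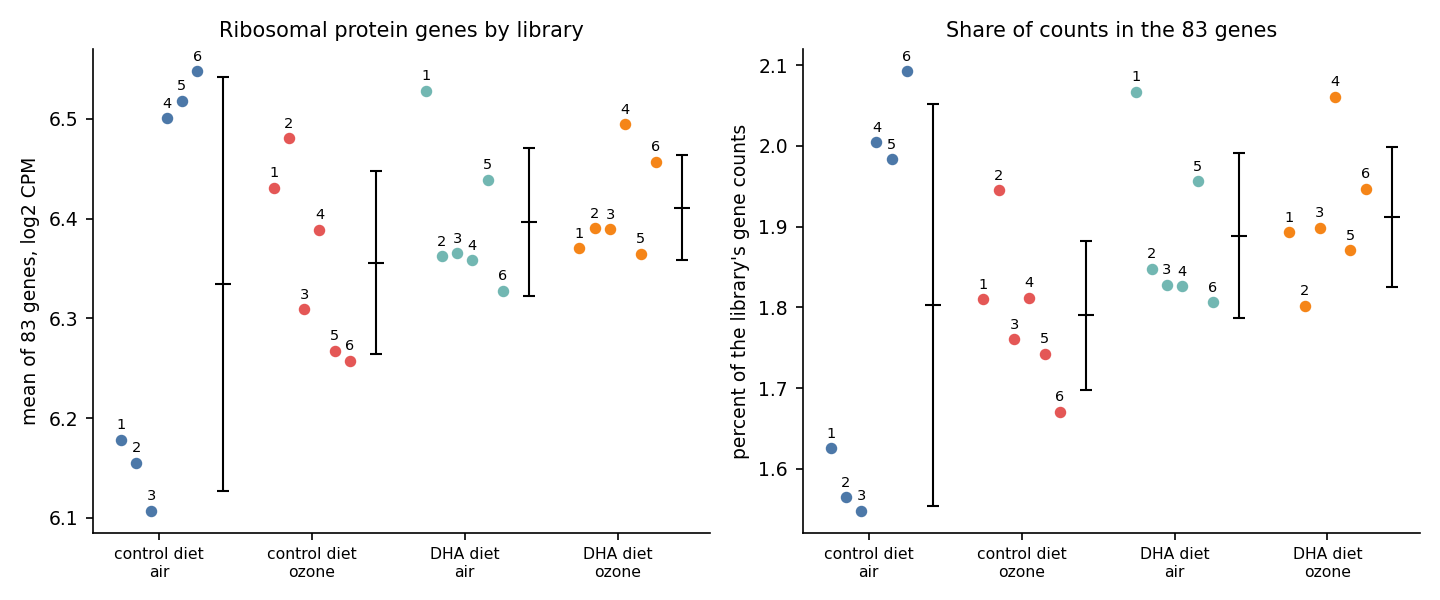
Left, the mean log2 CPM of the 83 genes in each library; right, their percent of the library's counts. Points are libraries with their number in the group, and the bars are the mean and SD (n = 6). Control-diet air libraries 1 to 3 lie at 6.11 to 6.18 log2 CPM and libraries 4 to 6 at 6.50 to 6.55.

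Control-diet air libraries 1 to 3 were low across the set. Library 3 was the lowest of all 24 libraries in 40 of the 83 genes, library 2 in 17 and library 1 in 6. They were among the lowest 3 of 24 in 62.7%, 66.3% and 86.7% of the ribosomal protein genes (libraries 1, 2 and 3), and in 16.9%, 16.5% and 16.1% of all 16153 genes tested. Transcript length moved with the low level. The median transcript length was 681 bases in the set and 2778 in the other genes with a length. Among 383 other genes shorter than 700 bases, the median deviation from the gene's own mean was -0.13, -0.14 and -0.18 log2 units in libraries 1, 2 and 3, against -0.21, -0.23 and -0.28 for the ribosomal protein genes, and among 6597 genes of 3000 bases or more it was 0.04, 0.03 and 0.07. In control-diet air libraries 4 to 6 the short genes stood at 0.07 to 0.11. The part of transcript length in the low level was not tested, and the labels give no batch.

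**Figure D3:**
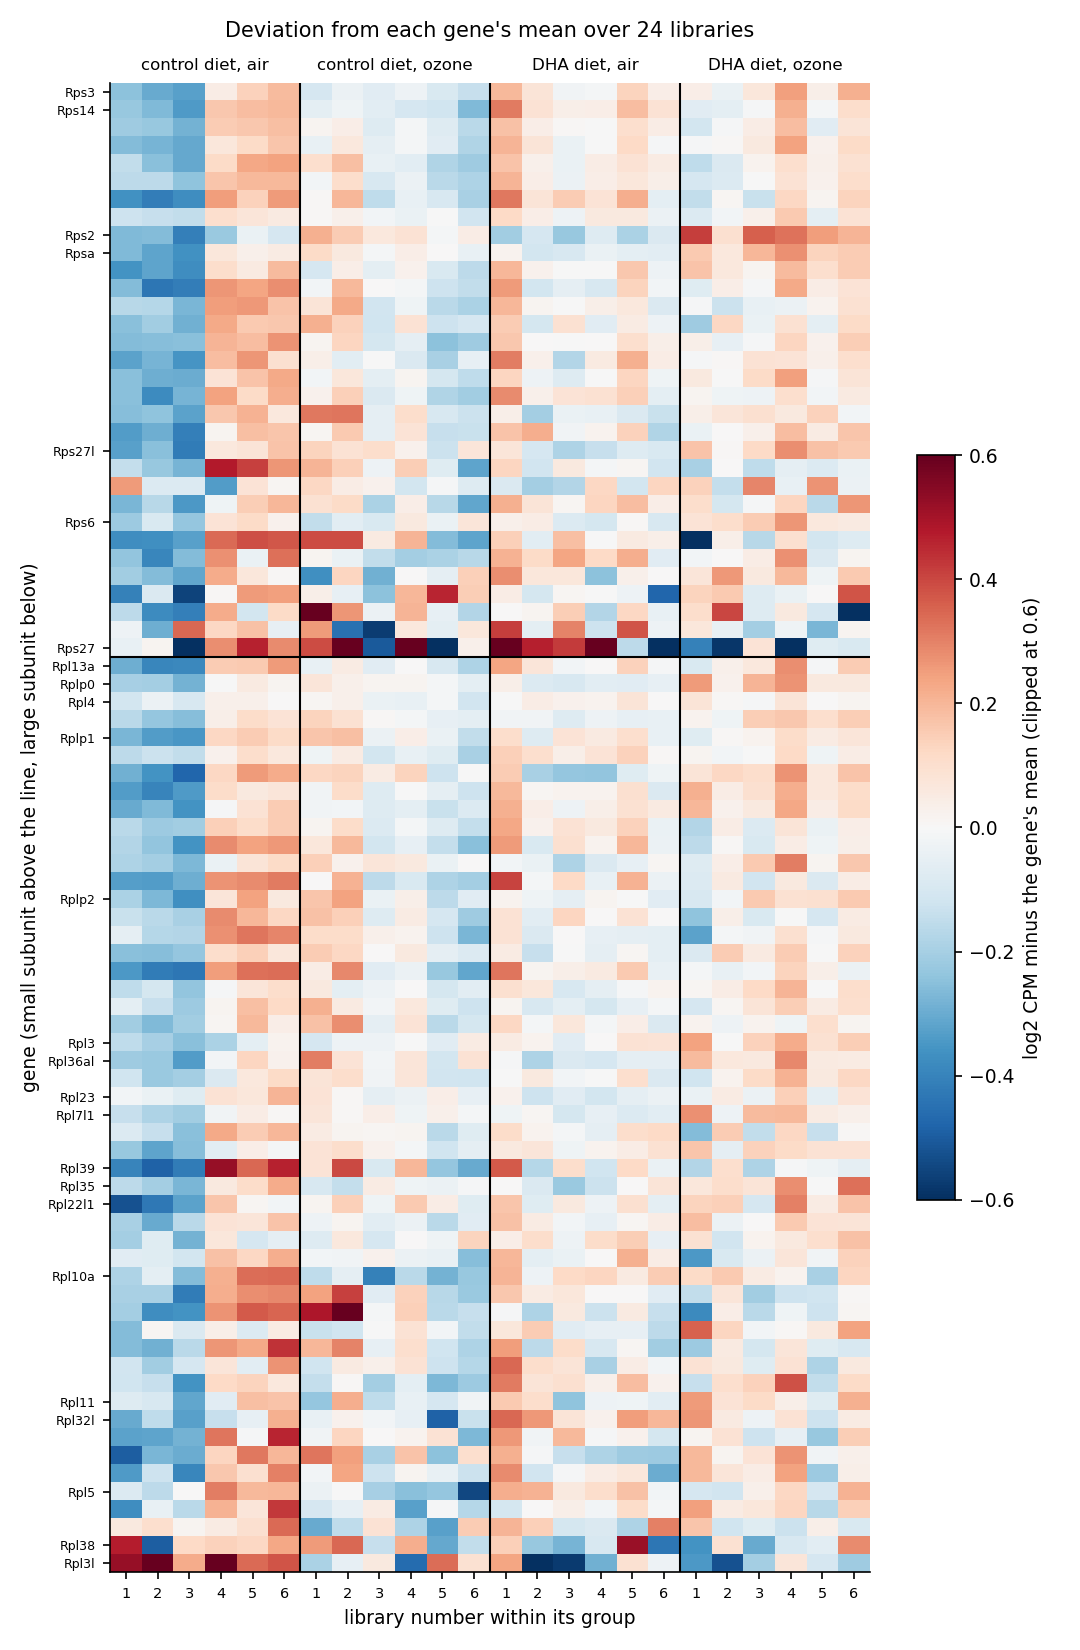
Each row is 1 of the 83 genes, ordered by level within its subunit, and each column 1 library; color gives the log2 CPM minus the gene's mean over 24 libraries, clipped at 0.6. Labelled rows are the 25 genes named by rule. Control-diet air libraries 1 to 3 are blue in most rows and libraries 4 to 6 red, and Rps2 is red in the DHA-diet ozone libraries.

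The spread of single genes within groups was close to that of other genes, but not at equal abundance. The residual SD (the SD of log2 CPM around group means) had a median of 0.156 over the 83 genes and 0.149 over all genes tested. At a mean of 5 log2 CPM or more it was 0.140 in 57 ribosomal protein genes and 0.0986 in 6529 genes. Within control-diet air the median SD was 0.224 for the set and 0.150 for all genes, and in the other 3 groups it was 0.119, 0.0934 and 0.106 for the set against 0.125, 0.123 and 0.157 (control-diet ozone, DHA-diet air and DHA-diet ozone). Rpl4, which lines the exit tunnel of the large subunit, varied least (residual SD 0.0468), with 1.14 times between its highest and lowest library, followed by Rpl23 (0.0759) and Rpl3 (0.0779), a protein near the peptidyl transferase centre. Rps27 varied most (0.519), with 298 counts in all and 0.192 to 0.999 CPM, followed by Rpl39 (0.299) and Rpl38 (0.287).

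Ozone against air on the control diet gave a median near 0 for the set and few calls. With edgeR (quasi-likelihood test, p-values adjusted after Benjamini and Hochberg over 16153 genes), 1 of 83 was higher and 2 were lower, against 8.93% of all genes higher and 7.87% lower. The median log2 fold change was 0.0045 for the set and -0.01 for all genes. Groups did not overlap in 1 of 83 genes (higher), against 4.5% of genes with ozone above and 3.26% below.

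Rps2, a small subunit protein at the entry of the messenger RNA channel (chromosome 17 at 24939037 to 24940902), was the gene that rose. Its lowest, median and highest control-diet air values were 306, 344 and 395 CPM and its control-diet ozone values 402, 427 and 471. All 6 ozone libraries lay above all 6 air libraries. The means were 351 ± 31.8 and 433 ± 24.7 CPM (SD, n = 6), a log2 fold change of 0.30 ± 0.06 (standard error), edgeR adjusted p = 7.81e-04. The call held in all 38 fits run, with log2 fold changes of 0.21 to 0.39 and adjusted p of at most 0.0386, and 71.1% of its 75-base words also lie in other genes.

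Rpl10a and Rpl5 fell, and both calls depended on single libraries of either group. Rpl10a, a protein of the large subunit's L1 stalk, read 24.9, 31.6 and 37.6 CPM in control-diet air and 22.5, 26.1 and 28.7 in control-diet ozone. The groups overlapped, at a log2 fold change of -0.29 ± 0.09 (edgeR adjusted p = 0.0242), and -0.05 (adjusted p = 0.692) without control-diet air libraries 4 to 6. Its call was also lost on leaving out any 1 of libraries 4, 5 and 6 of control-diet air (edgeR adjusted p = 0.0518, 0.0595 and 0.0613) or library 3 of control-diet ozone (0.0584). Rpl5, which with Rpl11 and 5S rRNA binds Mdm2, read 9.50, 11.4 and 13.1 CPM in air and 7.25, 9.13 and 10.6 in ozone. Its log2 fold change was -0.28 ± 0.09 (edgeR adjusted p = 0.0351), and -0.13 (adjusted p = 0.422) without control-diet air libraries 4 to 6. The groups overlapped here too. Its call was lost on leaving out any 1 of libraries 4 to 6 of control-diet air or of libraries 3 to 6 of control-diet ozone, at adjusted p of 0.0526 to 0.0874. In the fit of these groups alone both missed the threshold (edgeR adjusted p = 0.0580 for Rpl10a and 0.0706 for Rpl5). Of their 75-base words 87.6% (Rpl10a) and 92.5% (Rpl5) also lie in other genes. Rpl11 gave a log2 fold change of -0.02 (adjusted p = 0.897).

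The direction of the whole set turned with the control-diet air libraries. Without libraries 1 to 3, 1 gene (Rps2) was called higher and 23 lower, against 5.19% and 5.79% of genes, and the set's median log2 fold change was -0.17. Without libraries 4 to 6 instead, 39 were called higher and 0 lower (9.44% and 8.58% of genes; with 59 of 83 under an unadjusted p of 0.05, or 71.1%, against 32.3% of all genes), and the median was 0.21. Rpl13a turned from -0.25 (adjusted p = 0.0255) to 0.29 (adjusted p = 0.00723), Rpl39 from -0.42 (adjusted p = 0.0249) to 0.46 (adjusted p = 0.0128), and Rps3 from -0.21 (adjusted p = 0.0346) to 0.21 (adjusted p = 0.0238). Each is an edgeR fit with 3 control-diet air libraries, and these sets of libraries were chosen with their levels known.

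**Figure D4:**
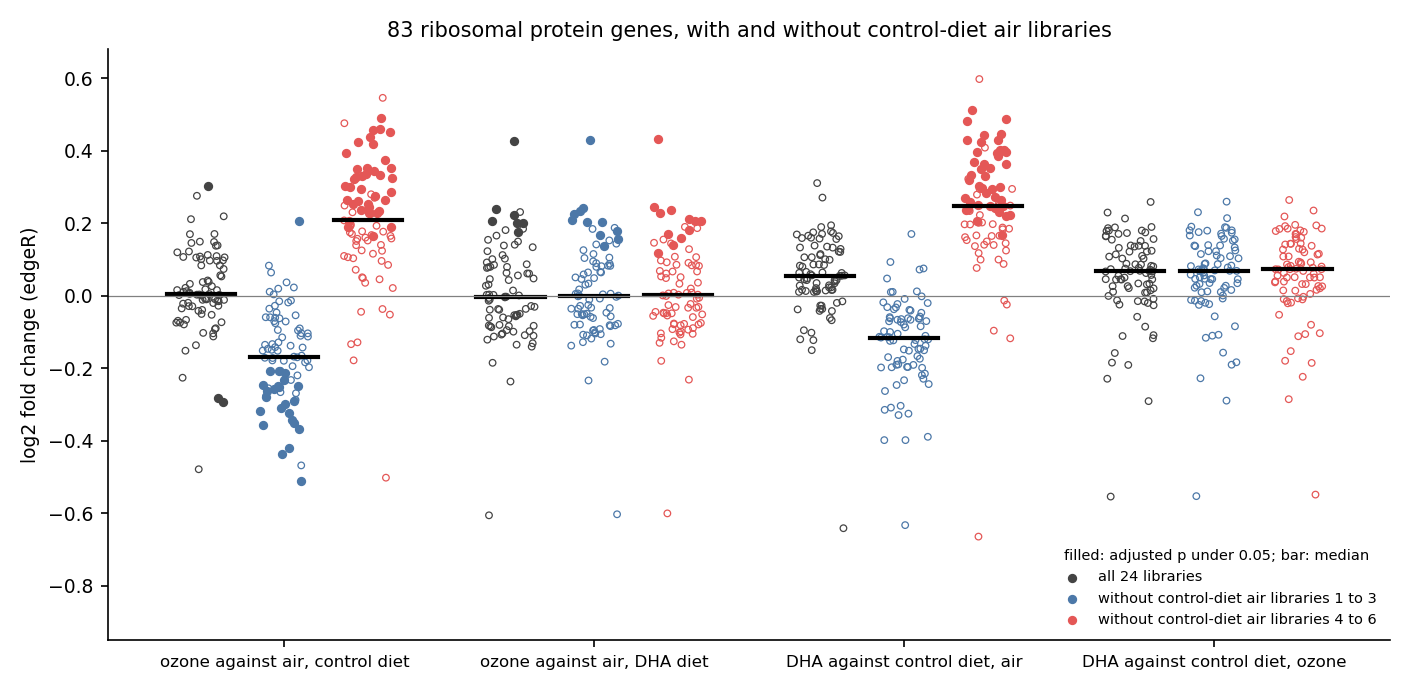
Points are the 83 genes' log2 fold changes (y axis) in 4 comparisons (x axis), each in the fit of all 24 libraries and in the fits without control-diet air libraries 1 to 3 or 4 to 6, filled where the edgeR adjusted p is under 0.05, and bars are medians. In the control-diet ozone comparison the median is 0.0045 with all 24 libraries, -0.17 without control-diet air libraries 1 to 3 and 0.21 without libraries 4 to 6. For ozone on the DHA diet the 3 medians are -0.0025, 0.00058 and 0.003. The sets of libraries left out were chosen with their levels known.

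On the DHA diet 7 of the 83 genes were higher after ozone and none lower by edgeR, 3 of the small subunit and 4 of the large. Over all genes 12.7% were higher and 11% lower, and 13 of the 83 had an unadjusted p under 0.05 (15.7%, against 35.6% of all genes). The set's median log2 fold change was -0.0025 and that of all genes -0.01. Ozone libraries lay wholly above air libraries in 4 genes (Rps2, Rpsa, Rps6 and Rpl36al) and wholly below in 0, against 5.14% and 3.89% of genes. The row of Rps6 holds fewer counts than that of Rps6-ps4, with which it shares its full coding sequence. The values of Rps6-ps4 are given with those of Rps6. Without control-diet air libraries 1 to 3 or 4 to 6, which enter here only through the shared spread, filter and scaling, 11 and 12 were higher (13.7% and 14.1% of genes).

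Rps2 was again the leading gene. It read 347, 367 and 384 CPM in DHA-diet air and 435, 496 and 541 in DHA-diet ozone, without overlap. The means were 367 ± 17.2 and 493 ± 38.7 CPM (SD, n = 6), and the log2 fold change 0.43 ± 0.06 (edgeR adjusted p = 1.38e-05), called in 38 of 38 fits. Rpsa, the small subunit protein also known as the laminin receptor, read 361, 373 and 395 CPM in air and 407, 434 and 470.4 CPM in ozone, again without overlap. Its log2 fold change was 0.22 ± 0.06 (edgeR adjusted p = 0.0108), and 0.15 on the control diet (adjusted p = 0.105).

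Of the P stalk, which recruits the elongation factors, Rplp0 alone passed. It read 876, 895 and 958 CPM in DHA-diet air and 951, 1027 and 1128 in DHA-diet ozone, with 1 air library inside the ozone range. Its log2 fold change was 0.20 ± 0.06 (edgeR adjusted p = 0.00999). Its partners Rplp1 and Rplp2 gave -0.01 (adjusted p = 0.967) and 0.09 (adjusted p = 0.471). On the control diet Rplp0, Rplp1 and Rplp2 gave 0.11, 0.11 and 0.10, none of them called (edgeR adjusted p = 0.200 to 0.438). The difference between the stalk proteins was not tested.

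Paralogues of ribosomal proteins were 3 of the 7 genes that rose. Rpl7l1, a nucleolar relative of Rpl7, read 79.7, 82.5 and 86.6 CPM in air and 84.0, 93.4 and 104 in ozone, with overlap (log2 fold change 0.17 ± 0.05, edgeR adjusted p = 0.0116). Rps27l, a relative of Rps27 and a p53 target, read 68.3, 72.5 and 81.6 CPM in air and 77.8, 86.9 and 94.0 CPM in ozone, with overlap (log2 fold change 0.24 ± 0.08, edgeR adjusted p = 0.0257). Rpl36al, a relative of Rpl36a, read 95.3, 103 and 108 CPM in air and 112, 113 and 132 CPM in ozone, without overlap (log2 fold change 0.20 ± 0.07, edgeR adjusted p = 0.0340). The paralogues with a fixed place among the named genes that did not pass were Rpl22l1 (0.09, adjusted p = 0.480) and Rpl3l (-0.03, adjusted p = 0.931). On the control diet the log2 fold changes were 0.10 (Rpl7l1), 0.15 (Rps27l), 0.17 (Rpl36al), 0.21 (Rpl22l1) and -0.48 (Rpl3l). None of these was called (edgeR adjusted p = 0.0511 to 0.196), nor was the interaction for any of them.

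Rpl35, a large subunit protein at the tunnel exit, was the last of the 7. It read 52.8, 59.7 and 64.8 CPM in air and 61.5, 65.5 and 77.4 in ozone, with overlap (log2 fold change 0.21 ± 0.07, edgeR adjusted p = 0.0400). On the control diet its log2 fold change was -0.01 (edgeR adjusted p = 0.938). Its call ended without any 1 of 10 libraries (DHA-diet air 2, 3 or 4, DHA-diet ozone 2, 4 or 6, control-diet ozone 2, 3, 4 or 6), at adjusted p of 0.0506 to 0.123, and with library totals in place of TMM scaling (0.0506). The call of Rpl36al ended without DHA-diet air library 2, 3 or 4 or DHA-diet ozone library 1 or 4 (0.0592 to 0.0980), and without DHA-diet ozone libraries 1 and 2 together (0.0640). The call of Rps27l ended without DHA-diet air library 3 or 4 or DHA-diet ozone library 4 (0.0548 to 0.0683). Of the 75-base words of Rpl35, 89.2% also lie in other genes, against 61.3% for Rpl36al and 12% for Rps27l. The share was 48.5% for Rpsa, 27.4% for Rplp0 and 4.21% for Rpl7l1. Rps6 read 23.7, 24.9 and 26.4 CPM in DHA-diet air and 26.6, 27.3 and 30.7 in DHA-diet ozone, without overlap, at a log2 fold change of 0.15 ± 0.06 that missed the threshold (edgeR adjusted p = 0.0681). Rps6-ps4, which has the same coding bases and 16.7 times the counts, gave 0.0043 (adjusted p = 0.955), and with both rows summed the log2 fold change was 0.02 (adjusted p = 0.806). Neutrophil markers moved in the same comparison: 7 of 8 rose (median 1.37), against 12.7% of all genes. Their summed level ran from 47 to 84.0 CPM in DHA-diet air and from 75.6 to 358 in DHA-diet ozone. On the control diet 1 of the 8 rose (median 0.03), against 8.93% of all genes, and the interaction was called for 0 of the 8. Of 7 lung epithelial markers 3 rose on each diet (medians 0.21 on the control and 0.12 on the DHA diet), against 8.93% and 12.7% of all genes, and their summed level ran from 90169 to 163503 CPM over the 24 libraries. Of 5 B cell markers 1 fell on the DHA diet, against 11% of all genes. Of 2 erythroid markers 1 fell on the control diet, as did 1 of 7 adipocyte markers, against 7.87% of all genes. None of 6 T cell or 6 endothelial markers was called in either ozone comparison. The part of any cell type in these and the list results was not tested.

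**Figure D5:**
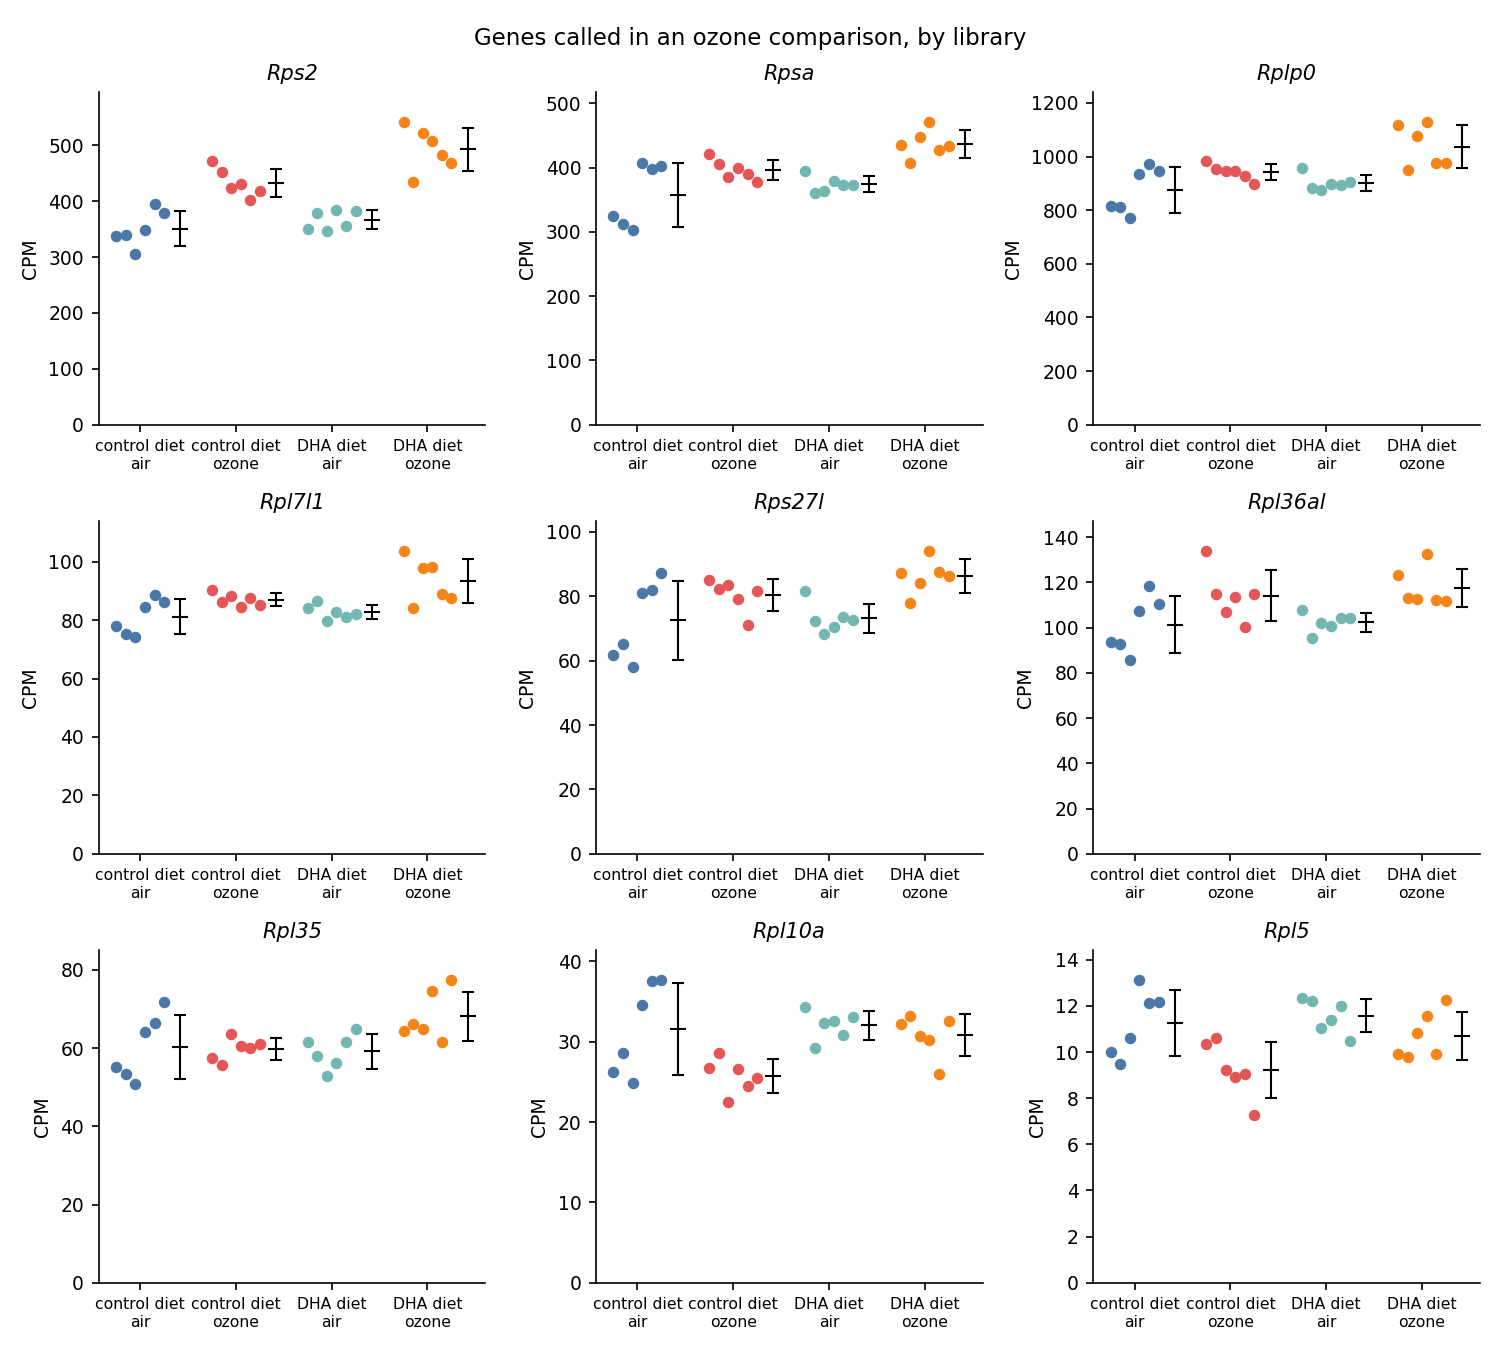
CPM of the 9 genes called in an ozone comparison, in each of the 24 libraries; points are libraries and bars the mean and SD (n = 6), with axes from 0. Rps2 lies at 435 to 541 CPM in DHA-diet ozone and at 347 to 384 in DHA-diet air.

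Lists of other machinery of protein synthesis and turnover held more called genes after ozone on the DHA diet, most of them above the share over all genes. Over all genes 8.93% rose on the control diet and 12.7% on the DHA diet, and shares of each list are given in that order. Among 53 ribosome biogenesis genes 11 and 21 rose (20.8% and 39.6%) and none fell. The medians were 0.10 and 0.14. The genes that rose included Nhp2 (0.56, adjusted p = 1.86e-06 on the DHA diet), a protein of the small nucleolar particles that modify rRNA, and Nop58 (0.42, adjusted p = 5.44e-04). Of 37 initiation factors 13 and 20 rose (35.1% and 54.1%), among them Eif5a (0.40, adjusted p = 3.59e-06) and Eif2s2 (0.30, adjusted p = 4.04e-05). Of 78 mitochondrial ribosomal proteins 19 and 33 rose (24.4% and 42.3%), with Mrps28 (0.48, adjusted p = 2.91e-05) first, and of 38 proteasome subunits 24 and 27 rose (63.2% and 71.1%), while 1 fell on the control diet. Of 81 respiratory chain subunits 10 and 36 rose (12.3% and 44.4%), the first share being near that over all genes, and of 11 elongation and termination factors 2 and 5 (18.2% and 45.5%). Of 18 other messenger RNAs with a 5′ pyrimidine tract 1 and 2 rose (5.56% and 11.1%), under the shares over all genes (Eef1g, 0.19, adjusted p = 0.00114 on the DHA diet), with medians of -0.04 and -0.02. These are edgeR calls, and the difference between lists was not tested. The control-diet counts changed in size with the control-diet air libraries, in sets that were chosen with their ribosomal protein levels known. Without libraries 1 to 3, where 5.19% of all genes rose and 5.79% fell, 5 biogenesis genes rose (9.43%), 4 initiation factors rose (10.8%) and 2 fell, 3 mitochondrial ribosomal proteins rose (3.85%) and 1 fell, 8 proteasome subunits rose (21.1%) and 1 fell, 3 respiratory chain subunits rose (3.70%) and 1 fell, and of the pyrimidine-tract messenger RNAs 0 rose and 3 fell. Without libraries 4 to 6, where 9.44% of all genes rose, the counts that rose were 14 biogenesis genes, 15 initiation factors, 34 mitochondrial ribosomal proteins, 30 proteasome subunits, 50 respiratory chain subunits and 3 pyrimidine-tract messenger RNAs. In the diet comparisons edgeR called no gene of these lists.

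RNA polymerase I makes most of the rRNA. Of its 11 genes measured, 1 fell on the control diet, and 1 rose and 1 fell on the DHA diet, near the shares over all genes (8.93% higher and 7.87% lower, 12.7% and 11%). Taf1a fell on both diets (-0.24, adjusted p = 0.0187 on the control diet, -0.26, adjusted p = 0.00774 on the DHA diet) and Polr1c rose on the DHA diet (0.12, adjusted p = 0.0127). Of 14 regulators of ribosome production 5 rose (35.7%, against 12.7% of all genes) and 2 fell (14.3%, against 11%) on the DHA diet. Tsc1, which restrains mTOR complex 1, fell (-0.37, adjusted p = 2.88e-04), while Rheb, which activates it, and Myc rose (0.20, adjusted p = 0.00177; 0.52, adjusted p = 0.00511). On the control diet 1 of the 14 rose (Rheb, 0.14, adjusted p = 0.0349) and 1 fell (Rps6kb2, -0.25, adjusted p = 0.0183).

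DHA against control diet in filtered air called 0 of the 83 genes by edgeR's quasi-likelihood test, against 0.724% of all genes higher and 0.427% lower. Unadjusted, 10 had p under 0.05 (12%, against 17.3% of all genes). DESeq2 called 2 higher and 1 lower (1.94% and 1.67% of genes) and limma-voom with quality weights 3 and 1 (2.53% and 2.73%). In 66 of the 83 genes the log2 fold change was above 0, whether called or not, and the share over all genes was not counted. The median log2 fold change was 0.05, against 0.0043 over all genes. No gene had groups without overlap, against 1.29% and 0.563% of genes. This comparison shares the control-diet air libraries with the first one, and its direction also turned with them. The sets left out were chosen with their ribosomal protein levels known, so the turn was in part set by that choice. Without libraries 1 to 3 the median was -0.12, with 0 called in either direction among the 83 or among all genes (0%) by edgeR. Unadjusted, 31 of the 83 then had p under 0.05 (37.3%, against 13.9% of all genes). Without libraries 4 to 6 the median was 0.25, with 43 called higher and 0 lower (3.98% and 5.45% of genes).

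The genes with the smallest p in filtered air were Rpl3l, Rpl3 and Rpl32l. Rpl3l read 1.71, 2.01 and 2.35 CPM in control-diet air and 0.912, 1.32 and 1.73 in DHA-diet air, and only the highest DHA-diet library lay above the lowest control-diet one (log2 fold change -0.64 ± 0.17, edgeR adjusted p = 0.0582; DESeq2 adjusted p = 0.0277). After ozone on the control diet it missed the threshold by little (log2 fold change -0.48 ± 0.17, edgeR adjusted p = 0.0511), with 1.07, 1.48 and 1.85 CPM in those libraries. It was called lower there in 11 of 38 fits, among them limma-voom (adjusted p = 0.0356), library totals (0.0393) and the filter of 1 CPM (0.0456). Of 7 cardiac muscle markers, all measured, none was called in the diet comparison in air by edgeR and 1 was lower after ozone on the control diet. Their summed level ran from 1613 to 2691 CPM in control-diet air, 1133 to 1889.8 in control-diet ozone and 1234 to 1994 in DHA-diet air. Their part in the level of Rpl3l was not tested. Rpl3 gave 0.16 ± 0.05 (adjusted p = 0.0707) and Rpl32l 0.31 ± 0.09 (adjusted p = 0.0766).

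In ozone the DHA diet called 0 of the 83 genes and 0 of all genes (0%) by edgeR, with 17 of the 83 under an unadjusted p of 0.05 (20.5%, against 14% of all genes). DESeq2 and limma-voom also called 0 of the 83, and 0.254% and 0.0495% of all genes higher and 0.241% and 0.0681% lower. The median log2 fold change was 0.07, against 0.0054 over all genes. In 64 of the 83 genes the log2 fold change was above 0, a count of signs without calls. The share of such signs over all genes was not counted. This comparison uses no air library, so leaving out control-diet air libraries 1 to 3 or 4 to 6 could hardly move its median, which stayed at 0.07. Over the fits that left out 1 library the median ran from 0.0381 to 0.0967. Rpl32 was the 1 gene whose DHA libraries all lay above the control-diet libraries, and 0 lay below (0.334% and 0.495% of genes). The smallest p were those of Rpl3 (0.17 ± 0.05, adjusted p = 0.161), Rps2 (0.19 ± 0.06, adjusted p = 0.180) and Rpl10a (0.26 ± 0.09, adjusted p = 0.208). Rpl3 read 112, 118 and 124 CPM in control-diet ozone and 119.6, 132 and 142 in DHA-diet ozone, and its call appeared without DHA-diet ozone library 2 (log2 fold change 0.20, adjusted p = 0.0450).

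The interaction of diet and exposure, which asks whether the ozone difference depended on the diet, was called for 0 of the 83 genes and for 0 of all genes (0%) by edgeR; 1 of the 83 had an unadjusted p under 0.05 (1.20%, against 6.12% of all genes). DESeq2 and limma-voom also called 0 of the 83 (0.0124% and 0% of all genes higher, 0.0186% and 0.0124% lower). Rps2 gave 0.12 ± 0.08 (adjusted p = 0.895), so its larger fold change on the DHA diet was not shown to differ from that on the control diet. The smallest p were those of Rpl35 (0.22 ± 0.10, adjusted p = 0.813), Rpl23 (0.13 ± 0.07, adjusted p = 0.831) and Rpl10a (0.24 ± 0.12, adjusted p = 0.850). The median over the 83 genes was -0.00049, 0.20 without control-diet air libraries 1 to 3 and -0.18 without libraries 4 to 6. Both sets of libraries were chosen with their levels known.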

How the data were processed

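Gene counts of 24 mouse lung RNA-seq libraries were deposited by the authors as whole-number counts, not normalized, except that the values of the most abundant gene (Scgb1a1) keep 3 significant digits. STAR, HTSeq and Partek are named in the submitters' processing notes without versions, with build mm39; strandedness and the treatment of reads with several hits were not given in the sources used here. Totals were 18053493 to 26225630 counts per library. The members and lists were chosen with earlier results of these data known. Genes were filtered with filterByExpr (minimum count 10, total 15; 16153 of 26253 genes, 83 of 83 members), scaled by TMM and tested with the edgeR 4.0.16 quasi-likelihood test in 1 fit of 4 group means over all 24 libraries (R 4.3.3), with Benjamini-Hochberg adjustment over all genes and a threshold of 0.05. The procedure was tested on simulated data. Comparisons that share a group are not independent. Log2 CPM used a prior count of 2. Shared sequence was measured with 75-base words of GENCODE M21 transcripts, and promoters came from RefSeq (GRCm38.p6). Named genes were the called members (at most 6 per direction), else the 3 with the smallest p, with the paralogues, stalk proteins, Rpsa, Rps6, Rpl5, Rpl11 and the 3 highest and lowest by level and by residual SD. Alternatives used RLE, DESeq2 1.42.0, limma 3.58.1, other filters, a replicate block, and fits without single libraries or without sets of libraries.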

Additional observations from a re-analysis of the deposited data

Results flagged for a closer look

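In 104 groups of 6 libraries examined (25 genes and the mean of the set, in 4 groups), 2 held a library whose gap to the next exceeded Dixon's critical share of the group's range, fewer than the about 1 in 20 that chance gives. Rpl32l had its lowest value in control-diet ozone library 5 (12 CPM, next 15.4, highest 17.2). Rplp0 had its highest DHA-diet air value in library 1 (958 CPM, next 904, lowest 876).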

How the results depend on the processing

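Rps2 was called in both ozone comparisons in each of 38 fits, and Rplp0, Rpsa and Rpl7l1 in 38 of 38 on the DHA diet. The counts of called genes moved as follows. On the control diet limma-voom called 5 higher, a threshold of 0.01 called 0 lower, the replicate block 1 lower (Rpl5 was lost, adjusted p = 0.0645), and the fit of the 2 groups alone 0 lower; without control-diet air libraries 4 to 6 there were 39 higher and 0 lower, and without libraries 1 to 3 23 lower. On the DHA diet a threshold of 0.01 gave 2 higher, limma-voom 12, and the fits without control-diet air libraries 1 to 3 or 4 to 6 gave 11 and 12. For DHA against control diet in air DESeq2 called 2 higher and 1 lower, limma-voom 3 and 1, and the fit without DHA-diet ozone libraries 1 and 2 gave 2 and 1; without control-diet air libraries 4 to 6 43 were higher. Medians moved by more than the spread between libraries in fits without control-diet air libraries 1 to 3 or 4 to 6, sets chosen with their levels known. They were -0.17 and 0.21 (ozone, control diet), -0.12 and 0.25 (diet, air), and 0.20 and -0.18 (interaction). Leaving out 1 library gave 1 to 3 higher and 0 to 3 lower (ozone, control diet), 4 to 9 higher (ozone, DHA diet), 0 to 4 higher and 0 to 1 lower (diet, air) and 0 to 1 higher (diet, ozone). Among single genes Rpl13a turned to -0.25 without control-diet air libraries 1 to 3, and without libraries 4 to 6 Rpl39 turned to 0.46 (ozone, control diet) and 0.48 (diet, air) and Rps3 to 0.21. Without Scgb1a1 in the total the mean share of counts was 1.99% (control-diet ozone), 2.07% (DHA-diet air) and 2.08% (the DHA diet with ozone). Same-numbered libraries deviated with a mean correlation of -0.0169, and 0 of 24 lay closest to one of their own number. No pairing by number was seen, which does not show that the design had none. Summing each of the 11 rows kept for shared sequence with its gene, and leaving out Rpl12 and Rpl28, were chosen after seeing the data. On the control diet they gave 1 higher and 3 lower and 1 higher and 2 lower. On the DHA diet they gave 8 higher and 0 lower and 7 higher and 0 lower. Causes were not tested. Rps27 held 298 counts in all, and 98.5% of its 75-base words also lie in other genes. The part of shared sequence in its level was not tested.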
